A study of Homo sapiens with 6 samples.

Results

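The responses of C4-2B prostate cancer cells to SR2211 and to XY011 were set against each other gene by gene. The change with a compound was log2((treated value + 1)/(vehicle value + 1)) within its own experiment, and the difference was the XY011 change minus the SR2211 change. A positive difference therefore marks a gene that stood higher with XY011, relative to vehicle, than with SR2211. The rule took genes that both experiments list and that reached 5 in at least 1 library of each. Of these 8553 genes, 408 (4.77%) had a difference of 1 or more in either direction on this log2 scale. They comprised 136 genes with a difference of 1 or more (1.59%) and 272 with a difference of -1 or less (3.18%). The threshold chose these genes on the values described below, so counts over them are descriptions and carry no test.

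C4-2B is an established bone-metastatic derivative of the LNCaP line, and the 4 libraries come from this 1 line. Cells of all 4 groups were grown in RPMI medium made mostly with charcoal-stripped serum, which is low in steroids and imitates castration. In the SR2211 experiment cells received vehicle or 5 µM SR2211, a nuclear receptor inverse agonist, for 48 h, and in the XY011 experiment vehicle or 5 µM XY011, known here by its code name, also for 48 h. Each group had 1 library, the titles of the 2 experiments carry different dates, and the extraction protocol names another code where XY011 would stand. The dose and time were matched, but compound and experiment cannot be told apart, and with 1 library per group no error, interval or p-value could be given for any difference. Levels are RPKM in the SR2211 experiment and FPKM in the XY011 experiment, both scaled for gene length and read number. Below, "rose" and "fell" are used of changes of at least 1 on the log2 scale.

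As background, an inverse agonist lowers the activity that a nuclear receptor has without added ligand. NRF2 is a transcription factor that switches on genes of haem breakdown and glutathione synthesis through antioxidant response elements. Genes of DNA replication are expressed ahead of S phase and genes of mitosis ahead of cell division, the latter through promoter elements bound by the DREAM and MuvB complexes. Immediate early genes and genes of the circadian clock respond within hours to signals from outside the cell.

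The SR2211 pair was estimated at 8.20 M and 8.16 M reads from values of microRNA genes. At these depths the values were whole reads within 0.01 read in 17 of 17 and in 25 of 26. Whole multiples of these depths would give whole reads too, so the depths and the read numbers below are estimates. Depth of the XY011 pair was not established. At that depth the listed genes had a median estimate of 294 reads in the lower library of the SR2211 pair, against 465 for all genes tested, and 5 of 382 with an annotated length were under 30 reads. All 7 luminal prostate markers were listed, and their summed level was 2749 in vehicle and 1064 RPKM with SR2211, and 2808 in vehicle and 1167 FPKM with XY011. Summed levels of endothelial markers were at most 0.490. Basal markers summed to at most 3.02. Leukocyte markers summed to at most 13.3, of which CD68, a lysosomal protein that macrophages share with other cells, was at most 13.1. The basal markers KRT5 and TP63 and the T cell marker CD3E had no listed value in either pair. Neuroendocrine markers summed to between 1.67 and 4.40 and mesenchymal ones to between 7.89 and 16.5. The endothelial marker CDH5 and the neuroendocrine marker CHGA had no listed value in the XY011 pair, and the leukocyte marker PTPRC none in the SR2211 pair. Sums of these types therefore cover unlike markers in the 2 pairs.

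More of the listed genes passed 1 with XY011 alone than with SR2211 alone. Among the 136 genes with a positive difference, 70 rose with XY011 and were under 1 with SR2211, 16 rose with both and 14 fell with SR2211 alone. A further 34 passed 1 with neither compound. Among the 272 with a negative difference, 141 fell with XY011 alone, 53 fell with both and 17 rose with SR2211 alone, while 10 rose with both and 51 passed with neither. Of all genes tested, 416 (4.86%) rose and 582 (6.8%) fell with SR2211, and 666 (7.79%) rose and 1150 (13.4%) fell with XY011. A line through both responses had a slope of 1.35 XY011 units per SR2211 unit over the 8553 genes, which share libraries and are not replicates. With the SR2211 change multiplied by this slope, 280 of the 408 genes remained past 1 in the same direction. Centring each pair on its median gene gave 160 positive and 229 negative differences, and quantile scaling gave 169 and 197, so the positive share moved from 33.3% to 41.1% and 46.2%.

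**Figure D1:**
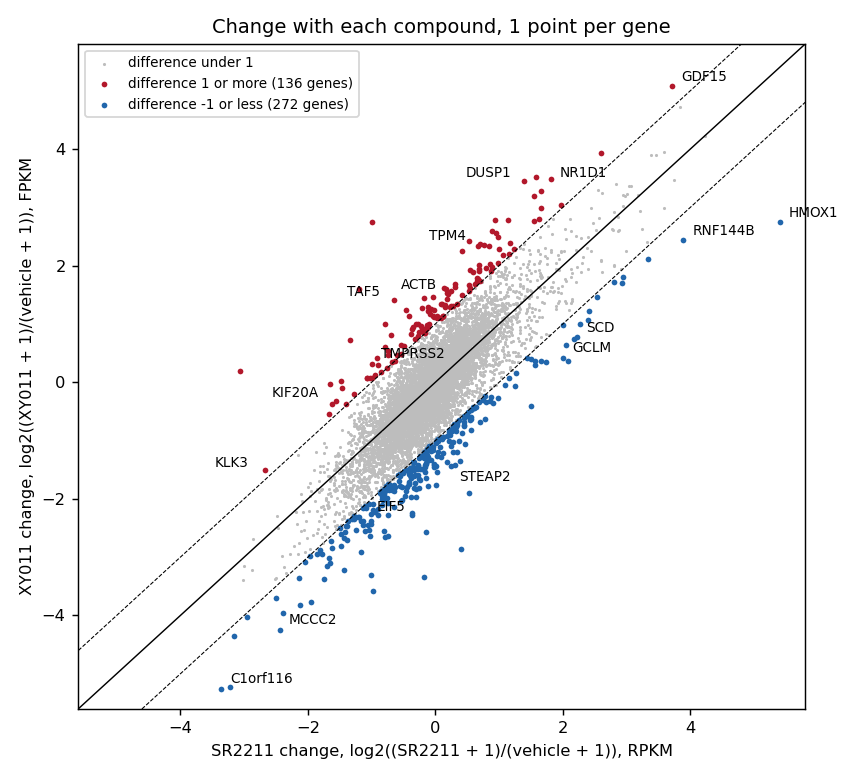
Change with SR2211 (horizontal axis, log2, from RPKM) against change with XY011 (vertical axis, log2, from FPKM), 1 point per gene for 8553 genes. Dashed lines lie 1 above and 1 below the line of equal change. The 136 red genes lie on or above the upper line, the 272 blue genes on or below the lower one, and HMOX1 stands at the right edge, at 5.40 and 2.74.

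The largest negative difference in a protein-coding gene was that of HMOX1, which encodes haem oxygenase 1, the enzyme that degrades haem. It stood at 10.6 in vehicle and 487 RPKM with SR2211, and at 6.51 in vehicle and 49.2 FPKM with XY011. It rose with both compounds, by 5.40 and 2.74, and the difference was -2.66. GCLM encodes the modifier subunit of glutamate-cysteine ligase, which starts glutathione synthesis. Its level was 16.9 in vehicle and 70.7 RPKM with SR2211, and 18.4 in vehicle and 24.9 FPKM with XY011 (difference -1.58). The SR2211 library was the only high one of the 4. SLC7A11, the cystine transporter that supplies glutathione synthesis, stood at 13.1 and 74.1 RPKM in the SR2211 pair and at 10.9 and 26.7 FPKM in the XY011 pair (-1.20). These were the 3 genes past -1 among 37 tested on a list of oxidative stress and glutathione genes, and no gene of the list was past 1. Counts on this and later lists stand beside 3.18% of all genes tested past -1 and 1.59% past 1. The median difference of that list was -0.07, against -0.03 over all genes, and 9 of its members rose with each compound.

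The promoter of GCLM is shown because it holds a match to the antioxidant response element, searched as TGACNNNGC on both strands from 250 bases before to 50 after the gene start. It lies at chr1:93909381-93909680 on the minus strand of GRCh38.p14, from RefSeq, is written 5′ to 3′ along the gene, and capitals mark the match, which is on the opposite strand and starts 34 bases before the gene start.
GCLM: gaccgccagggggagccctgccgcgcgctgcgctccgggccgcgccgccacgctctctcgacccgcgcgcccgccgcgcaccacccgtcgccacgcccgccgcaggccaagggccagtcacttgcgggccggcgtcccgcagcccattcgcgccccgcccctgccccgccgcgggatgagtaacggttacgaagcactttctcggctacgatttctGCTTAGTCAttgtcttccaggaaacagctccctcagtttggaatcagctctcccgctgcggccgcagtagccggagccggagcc
This motif occurred in 13.6% of 27305 promoters in the RefSeq table, in 16.0% of the 7085 genes tested that had a promoter there, in 22.6% of 106 promoters of genes with a positive difference and in 16.9% of 207 with a negative one. A match is a description of letters and not a binding site.

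Metallothionein genes, whose products bind zinc and copper, behaved likewise in 2 of 11 tested members of a metal list. MT1F stood at 9.89 and 44.9 RPKM in vehicle and SR2211, and at 5.98 and 8.0 FPKM in vehicle and XY011 (difference -1.71). MT1X was at 25.5 and 204 RPKM and at 34.2 and 122 FPKM (-1.14). Both belong to a family of near-identical copies, so reads may be split between members and these values are uncertain. The median of the metal list was -0.14.

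Lipid genes were also on the negative side, with 4 of 24 tested members of a fatty acid synthesis and storage list past -1, none past 1 and a median of -0.39. SCD, the desaturase that makes monounsaturated fatty acids, stood at 287 and 1346 RPKM in vehicle and SR2211, and at 229 and 391 FPKM in vehicle and XY011 (difference -1.46). ACSL1, which activates long-chain fatty acids with coenzyme A, was at 108 and 492 RPKM and at 72.3 and 121 FPKM (-1.44). Both rose with SR2211 and were under 1 with XY011. The other 2 differed in another way. FADS2, a desaturase of polyunsaturated fatty acids, stood at 731 and 694 RPKM and fell with XY011 from 751 to 332 FPKM (-1.10), and the elongase gene ELOVL7 fell with both, from 109 to 49.0 RPKM and from 74.3 to 12.8 FPKM (-1.32). On the cholesterol list, with 2 of 21 past -1 and a median of -0.21, FDPS, which makes farnesyl diphosphate, was at 104 and 111 RPKM and fell with XY011 from 124 to 50.2 FPKM (-1.37). ACAT2 fell with XY011 from 36.6 to 8.91 FPKM and stood at 23.3 and 13.0 RPKM in the other pair (-1.12).

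**Figure D2:**
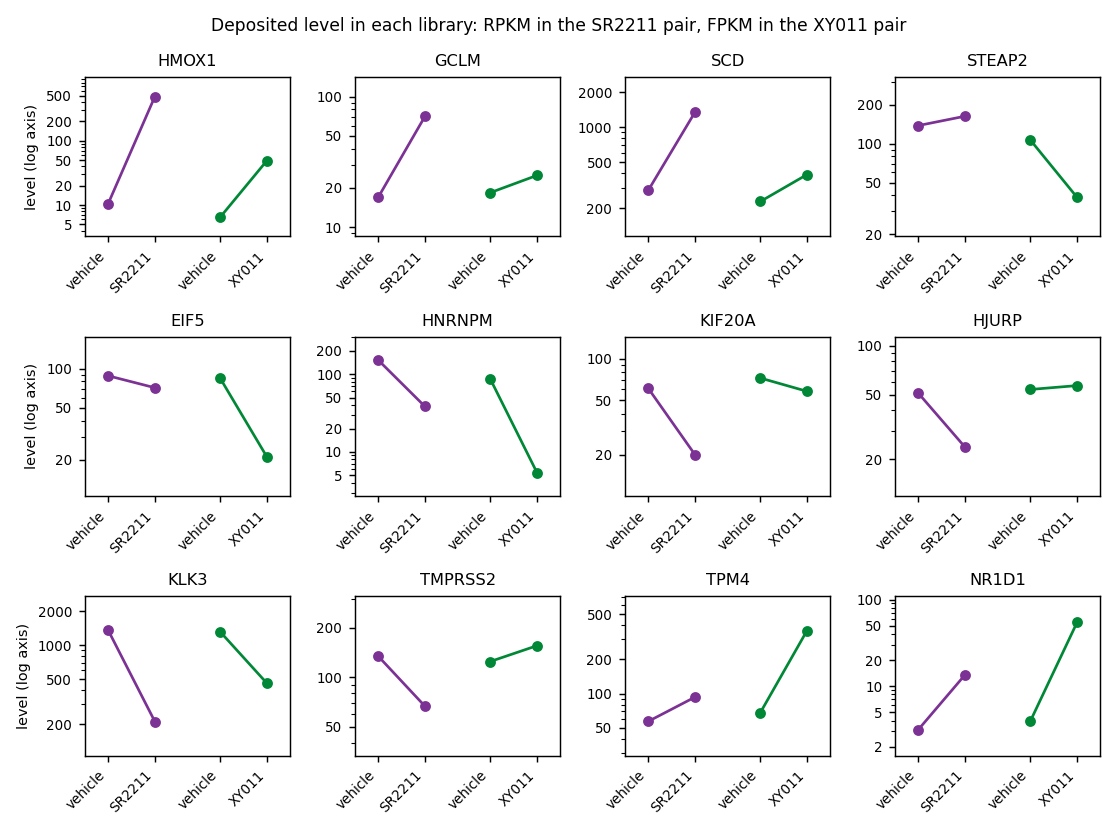
Deposited level in each of the 4 libraries for 12 genes, on log axes that differ between panels, with RPKM for the SR2211 pair in purple and FPKM for the XY011 pair in green. Lines join a vehicle library to its treated library. HMOX1, GCLM and SCD have their highest point with SR2211, STEAP2, EIF5 and HNRNPM their lowest with XY011, and KIF20A, HJURP, KLK3 and TMPRSS2 their lowest with SR2211.

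Several genes fell with XY011 and changed by less than 1 with SR2211, and others rose further with SR2211. EIF5, a translation initiation factor that helps select the start codon, stood at 88.4 and 71.6 RPKM in vehicle and SR2211, and fell from 84.5 to 21.0 FPKM with XY011 (difference -1.66). It was the only one past 1 of 57 tested translation factors, whose median was 0.07. ADAMTS1, a secreted metalloprotease, was at 71.4 and 55.4 RPKM and fell from 53.3 to 10.5 FPKM (-1.88). THBS1, the matrix protein thrombospondin 1, was at 27.3 and 15.2 RPKM and fell from 24.4 to 3.34 FPKM (-1.74). In these 3 genes the XY011 library was the low one of the 4. CYP2R1, a vitamin D 25-hydroxylase, rose with SR2211, from 7.69 to 23.6 RPKM, and stood at 7.80 and 5.64 FPKM in the XY011 pair (-1.90). RNF144B, a ubiquitin ligase, rose with both, from 2.25 to 47.2 RPKM and from 1.77 to 14 FPKM (-1.45).

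In another set both compounds lowered the gene and XY011 did so further. HNRNPM, a splicing regulator, fell from 151 to 38.4 RPKM with SR2211 and from 86.5 to 5.42 FPKM with XY011 (difference -1.82). SRSF1, a splicing factor that also acts in mRNA export, fell from 91.9 to 32.2 RPKM and from 61.3 to 7.87 FPKM (-1.33). Differences were -1.24 for HNRNPD, which binds AU-rich mRNA elements, and -1.13 for SRSF6. These were the 4 of 67 tested HNRNP and SR splicing factors past -1, with none past 1, and the median was -0.08, so most of the list differed little. With the slope applied 1 of the 4 stayed past -1. MCCC2, a subunit of the enzyme that breaks down a leucine intermediate, fell from 48.6 to 8.15 RPKM and from 43.8 to 1.37 FPKM (-1.80). AUH, which acts in the same pathway, stood at 10.5 and 15.8 RPKM and at 10.4 and 6.42 FPKM (-1.16), and the median of the 19 tested genes of branched-chain amino acid breakdown was -0.23. AGR2, a protein disulfide isomerase of secretory epithelium, fell from 63.7 to 11.3 RPKM and from 35.2 to 1.34 FPKM (-1.56).

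Genes of mitosis and of DNA replication lay on opposite sides. Of 83 tested mitosis genes 67 had a difference above 0, beside 3961 of all 8553 genes tested. The median was 0.50 against -0.03 over all genes. The median change was -0.91 with SR2211, where 31 fell, and -0.33 with XY011, where 14 fell. Past 1 were 11 genes, and 1 was past -1, beside 1.59% and 3.18% of all genes tested. KIF20A, a kinesin of the central spindle, fell from 60.9 to 20.0 RPKM with SR2211 and stood at 72.5 and 58.0 FPKM in the XY011 pair (difference 1.24). HJURP, the chaperone that loads the centromeric histone, fell from 51 to 23.7 RPKM and stood at 53.8 and 56.9 FPKM (1.15). In both genes the SR2211 library was the low one of the 4. CDC20, the activator of the anaphase-promoting complex, was at 125 and 64.2 RPKM and at 118 and 128 FPKM (1.07). TOP2A, the topoisomerase that untangles sister chromatids, was at 72.2 and 56.4 RPKM and at 46.7 and 90.8 FPKM (1.29), with its vehicle libraries 0.62 apart. NEK2, a centrosome kinase, had a difference of 1.26. KIF18B, PSRC1, ANLN, CDC25B, CCNA2 and BUB1, which act on microtubules, the cleavage furrow, cyclin-dependent kinases and the spindle checkpoint, lay between 1.03 and 1.20. SKA3, a kinetochore protein gene, went the other way, falling from 52.7 to 18.9 RPKM and from 58.7 to 8.37 FPKM (-1.24). Applying the slope to the SR2211 change raised the number past 1 from 11 to 26, and that over all genes from 136 to 175. Using 1 mean vehicle for both experiments cancels the vehicle and leaves the XY011 library against the SR2211 library. With 1 mean vehicle 5 of the 11 stayed past 1.

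3 promoters of this list are shown because they hold matches to the core of the cell cycle homology region, searched as TTTGAA on both strands of the same window. CDC20 lies at chr1:43358731-43359030 on the plus strand, TOP2A at chr17:40417847-40418146 and HJURP at chr2:233854486-233854785, both on the minus strand (GRCh38.p14, RefSeq). Each is written 5′ to 3′ along the gene. Capitals mark the matches, and TTCAAA is the same motif on the opposite strand. They start 178 and 65 bases before the gene start in CDC20, 194 and 151 in TOP2A and 111 in HJURP.
CDC20: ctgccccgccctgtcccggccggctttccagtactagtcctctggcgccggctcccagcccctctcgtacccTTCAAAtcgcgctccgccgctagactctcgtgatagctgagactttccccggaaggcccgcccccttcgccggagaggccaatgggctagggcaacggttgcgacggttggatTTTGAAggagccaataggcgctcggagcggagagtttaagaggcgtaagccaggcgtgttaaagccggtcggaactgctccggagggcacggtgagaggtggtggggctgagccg
TOP2A: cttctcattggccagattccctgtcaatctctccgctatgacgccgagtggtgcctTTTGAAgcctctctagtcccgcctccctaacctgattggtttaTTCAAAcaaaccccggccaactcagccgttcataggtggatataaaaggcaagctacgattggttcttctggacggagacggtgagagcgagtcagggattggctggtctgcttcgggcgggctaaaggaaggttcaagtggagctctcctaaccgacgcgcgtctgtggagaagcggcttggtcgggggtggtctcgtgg
HJURP: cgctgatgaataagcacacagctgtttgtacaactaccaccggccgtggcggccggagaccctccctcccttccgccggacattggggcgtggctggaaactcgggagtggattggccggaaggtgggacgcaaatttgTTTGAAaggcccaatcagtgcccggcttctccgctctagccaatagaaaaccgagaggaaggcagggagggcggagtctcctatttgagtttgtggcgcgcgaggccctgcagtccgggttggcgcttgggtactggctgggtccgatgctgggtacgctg
TTTGAA occurred in 15.4% of all promoters in the table and in 9.02% of those of genes tested. It occurred in 45 of 70 promoters of tested mitosis genes (64.3%), in 6 of the 12 past 1 in either direction (50%), and in 2 of 52 of replication genes (3.85%). The CCAAT box, searched as CCAAT, occurred in 70% of the mitosis promoters and in 38.6% of promoters of genes tested. No marked match overlapped a match to another motif searched.

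On the DNA replication and nucleotide supply list, 7 of 62 genes were past -1 and none past 1. A difference above 0 was found in 11 of the 62, beside 3961 of all 8553 genes tested. The median difference was -0.43, with median changes of -1.22 for SR2211, where 44 fell, and -1.72 for XY011, where 51 fell. POLE2, a subunit of the leading-strand polymerase, stood at 10.8 and 4.28 RPKM and at 14.3 and 1.03 FPKM (difference -1.75). FEN1, the endonuclease that trims Okazaki fragments, fell from 66.0 to 14.3 RPKM and from 57.2 to 4.65 FPKM (-1.23). CDC45 and MCM3, parts of the replicative helicase, had differences of -1.12 and -1.03. POLA1 and POLA2 of the primase-polymerase complex were at -1.11 and -1.09. All 7 fell with both compounds. The list depended on how the responses were scaled. With the slope applied its median was -0.02 and 1 gene was past -1, and with quantile scaling 2 were.

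Androgen-regulated genes split in both directions. Of 33 tested, 24 fell with each compound, 8 had a difference past -1 and 4 past 1, and the median was -0.15. KLK3, which encodes prostate-specific antigen, fell from 1357 to 212 RPKM with SR2211 and from 1315 to 461 FPKM with XY011 (difference 1.17). TMPRSS2, a membrane serine protease, stood at 134 and 66.7 RPKM and at 125 and 156 FPKM (1.32). In both the SR2211 library was the lowest of the 4. TSC22D3, which glucocorticoids also induce, rose with both, from 44.3 to 141 RPKM and from 35.8 to 358 FPKM (1.64). ZBTB10, a zinc finger gene, had a difference of 1.15. On the other side, STEAP2, a metalloreductase, stood at 138 and 163 RPKM and fell from 106 to 38.5 FPKM with XY011 (-1.68). C1orf116 fell from 79.9 to 6.90 RPKM and from 74.7 to 0.980 FPKM (-1.90). The prostein gene SLC45A3 fell from 67.6 to 7.86 RPKM and from 57.3 to 2.60 FPKM (-1.07). FKBP5, an Hsp90 co-chaperone, was at 72.0 and 11.9 RPKM and at 187 and 13.5 FPKM (-1.20). Its treated libraries were 0.16 apart and its vehicles 1.36. STEAP1 (-1.16), the potassium channel gene KCNN2 (-1.11) and the transcription factor gene MAF (-1.01) were also past -1. With the slope applied the number past -1 was 2 and the median 0.34, a change of sign.

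**Figure D3:**
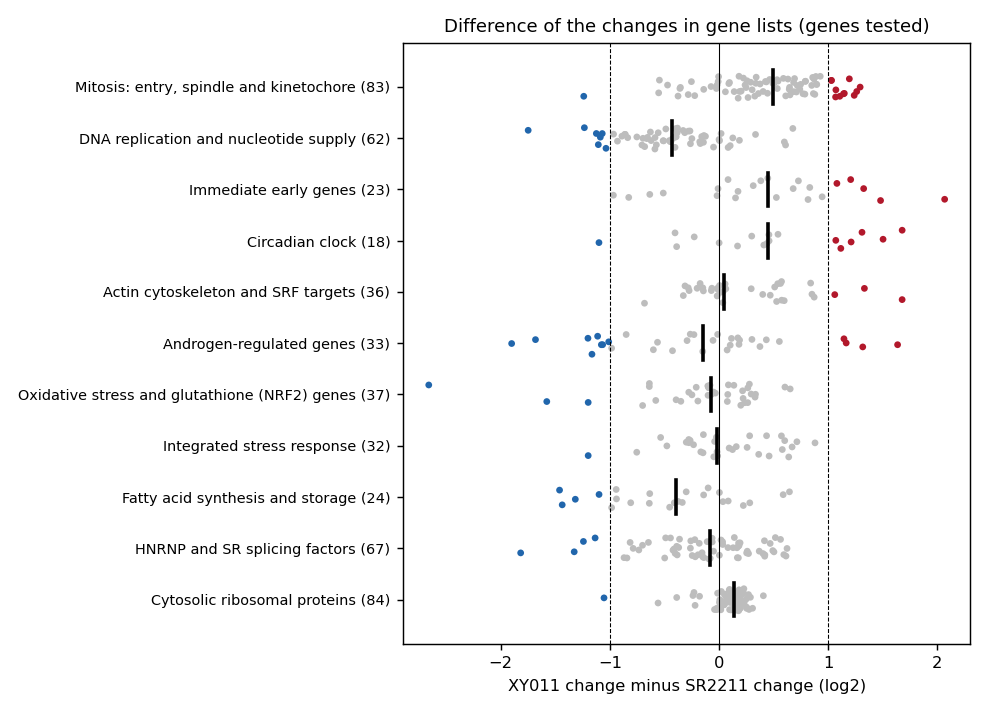
Difference of the changes (horizontal axis, XY011 minus SR2211, log2) for each tested gene of 11 lists, with the number tested in brackets. Vertical bars are list medians, dashed lines mark 1 and -1, and red and blue points are genes past them. Mitosis genes centre at 0.50 and DNA replication genes at -0.43, while ribosomal protein genes centre at 0.13.

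Immediate early genes and clock genes were mostly on the positive side. On the immediate early list 5 of 23 were past 1, none past -1, and the median was 0.45, with 9 genes that rose with SR2211 and 13 with XY011. DUSP1, a phosphatase that switches off MAP kinases, stood at 9.33 and 25.9 RPKM and at 4.10 and 54.9 FPKM (difference 2.07). Its vehicles were 1.02 apart. JUND, an AP-1 subunit, rose from 56.4 to 180 RPKM and from 37.05 to 299.5 FPKM (1.33). The nuclear receptor gene NR4A1 was at 13.0 and 11.1 RPKM and at 6.4 and 16.8 FPKM (1.48), the mRNA decay factor gene ZFP36L1 had a difference of 1.21 and the Notch target HES1 one of 1.08. With the slope applied 2 of these 5, DUSP1 and NR4A1, stayed past 1, and with 1 mean vehicle for both experiments only DUSP1 did.

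On the clock list 6 of 18 were past 1 and 1 past -1, with a median of 0.45. NR1D1, which encodes the repressor REV-ERBα, rose from 3.14 to 13.5 RPKM and from 3.95 to 54.5 FPKM (difference 1.68). C1orf51, now named CIART, a repressor of the clock, stood at 5.27 and 10.2 RPKM and at 5.29 and 30.8 FPKM (1.5). PER1, a period gene, was at 5.79 and 6.83 RPKM and rose from 5.46 to 17.5 FPKM with XY011 (1.31). In C1orf51 and PER1 the vehicles were within 0.07 of each other and the XY011 library was the high one. DBP, a clock output factor, had a difference of 1.21, the repressor gene BHLHE40 of 1.12 and NR1D2 of 1.07. ARNTL, the activator BMAL1 that REV-ERBs repress, went the other way, at 6.34 and 16.5 RPKM and at 7.19 and 8.14 FPKM (-1.10).

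Promoters of PER1 and C1orf51 are shown because they hold the E-box CACGTG, the element of clock activators, which reads the same on both strands. PER1 lies at chr17:8152355-8152654 on the minus strand and C1orf51 at chr1:150282304-150282603 on the plus strand (GRCh38.p14, RefSeq), each written 5′ to 3′ along the gene. Capitals mark the matches, which start 173 bases before the gene start in PER1 and 129, 71 and 57 bases before it in C1orf51.
PER1: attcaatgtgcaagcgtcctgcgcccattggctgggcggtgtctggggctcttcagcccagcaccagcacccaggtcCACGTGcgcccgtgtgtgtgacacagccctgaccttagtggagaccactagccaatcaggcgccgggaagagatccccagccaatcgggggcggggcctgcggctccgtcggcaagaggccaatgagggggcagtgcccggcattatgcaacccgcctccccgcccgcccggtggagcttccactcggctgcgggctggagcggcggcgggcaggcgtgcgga
C1orf51: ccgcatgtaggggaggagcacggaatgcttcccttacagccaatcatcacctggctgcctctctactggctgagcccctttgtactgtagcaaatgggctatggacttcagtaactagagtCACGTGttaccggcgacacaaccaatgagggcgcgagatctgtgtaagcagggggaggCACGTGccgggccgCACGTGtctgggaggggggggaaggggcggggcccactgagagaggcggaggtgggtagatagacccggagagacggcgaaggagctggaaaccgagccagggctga
CACGTG occurred in 7.43% of all promoters in the table, in 11.5% of those of genes tested, in 5 of 16 tested clock genes with a promoter there and in 3 of the 7 past 1 in either direction.

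Actin genes included 3 of 36 past 1 and none past -1, beside 1.59% and 3.18% of all genes tested, with a median of 0.05. TPM4, a tropomyosin, stood at 57.0 and 93.2 RPKM and rose from 68.1 to 358 FPKM with XY011 (difference 1.68). ACTB, beta-actin, was at 2067 and 2379 RPKM and rose from 2757 to 7997 FPKM (1.33), and processed copies of this gene in the genome make its counting uncertain. SRF, the transcription factor of many actin genes, was at 19 and 22.4 RPKM and at 19.1 and 47.9 FPKM (1.06). In all 3 the XY011 library was the highest of the 4. On this list 3 genes rose with SR2211 and 10 with XY011.

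Other large positive differences were found outside the lists described so far. TAF5, a subunit of the general transcription factor TFIID, moved in opposite directions, from 8.73 to 5.22 RPKM with SR2211 and from 7.19 to 20.85 FPKM with XY011 (difference 2.06). RASSF1, a tumour suppressor gene, did so too, at 8.50 and 4.52 RPKM and at 6.48 and 14 FPKM (1.79). PIM1, a survival kinase, rose from 3.01 to 11 RPKM and from 3.44 to 49.97 FPKM (1.94). PPP1R3B, which targets a phosphatase to glycogen, stood at 7.61 and 11.4 RPKM and at 8.61 and 50.2 FPKM (1.89). GADD45B, a stress-induced gene on a list of p53 targets, was at 4.20 and 7.30 RPKM and at 2.62 and 17.3 FPKM (1.66). The p53 list had 2 of 25 tested genes past 1, none past -1 and a median of 0.16. Moves of at least 0.5 in opposite directions occurred in 18 of the 8553 genes. Such moves always make a difference of at least 1, so all 18 are among the 408 by arithmetic. Of the 18, 15 were not small RNA genes. With a negative difference these were C11orf74, LPCAT3, HACL1, TMEM234, LINC00963, EDEM1, AUH, PRKD1 and USP40, and with a positive one WEE1, SNHG4, BIK, C1orf63, RASSF1 and TAF5.

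A difference of changes has a part that lies between the vehicles. The 2 vehicle libraries were apart by 1 or more in 453 of the 8553 genes (5.3%), in 19 of the 136 with a positive difference and in 27 of the 272 with a negative one, or 46 of 408 (11.3%). The treated libraries were apart by 1 or more in 822 genes tested (9.61%). Among the listed genes they were so in the direction of the difference in 61 of 136 and in 175 of 272. Over all 8553 genes the count in the direction of the difference was 692, and the treated libraries enter the rule itself. HSPB1, the small heat shock protein HSP27, stood at 896 and 654 RPKM and at 404 and 956 FPKM (difference 1.69), with vehicles -1.15 apart. GDF15, a stress cytokine, rose with both, from 175 to 2315 RPKM and from 57.3 to 1969 FPKM (1.37), but its vehicles were -1.60 apart and its treated libraries -0.23. The tight junction gene CLDN3 was at 62.4 and 47.6 RPKM and at 6.80 and 12.9 FPKM (1.21), with vehicles -3.02 apart. With 1 mean vehicle for both experiments the vehicle cancels, which leaves the treated libraries set against each other, as counted above. By that measure 236 of the 408 genes stayed past 1 in the same direction, and in 26 the sign was the other way. GDF15, CLDN3 and FKBP5 were among these 26. The part of the experiment in these differences was not tested.

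**Figure D4:**
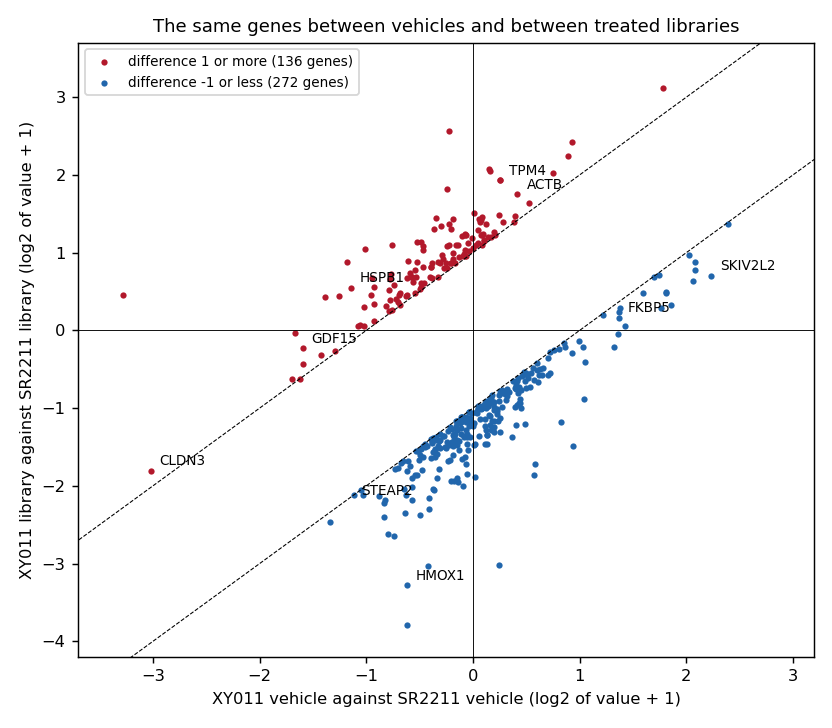
Difference between the 2 vehicle libraries (horizontal axis, XY011 experiment against SR2211 experiment, log2 of value + 1) and between the 2 treated libraries (vertical axis, same scale) for the 408 genes. The distance of a point from the diagonal of equal values is the difference described here. CLDN3 lies at -3.02 between vehicles and HMOX1 at -0.62.

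Some listed genes are uncertain for other reasons. Small nucleolar, small nuclear and microRNA genes made up 16 of the 408 against 21 of the 8553 tested, and poly(A)-selected libraries measure them poorly. In this class SNORD22, SNORD116-4 and SNORA76 stood at the stand-in value for no reads in 1 library, as did SNORA4, SNORA73A, SNORD88B and RNU2-1. Among longer genes LOC100289361 (6.26 FPKM in vehicle), LOC100288842 (8.94 FPKM), LINC00161 (6.32 FPKM) and the histone gene HIST1H4H (5.26 FPKM) were at the stand-in with XY011, and HIST1H4H belongs to a family of close copies. Without the small RNA genes 127 positive and 265 negative differences were left. FAM86C1 and other genes with near-identical copies, and antisense genes such as RAB30-AS1 and ZBED5-AS1, may share reads with their partners.

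A list of long noncoding RNAs had 10 of 94 tested members past -1, 1 past 1 and a median of -0.27. RAB30-AS1 stood at 10.7 and 9.83 RPKM and at 8.03 and 1.62 FPKM (difference -1.67), and LINC00839 at 9.82 and 6.49 RPKM and at 9.89 and 1.69 FPKM (-1.49). SNHG9, a small nucleolar RNA host gene, had a difference of -1.37. On the luminal epithelial list 3 of 20 were past 1, namely CLDN3, CLDN4 (1.12) and the transcription factor gene EHF (1.07). Past -1 were 2, AGR2 and the transcription factor gene GRHL2 (-1.08). With 1 mean vehicle for both experiments 0 of the 3 and 1 of the 2 stayed past, and with the slope applied 3 and 0. Histone genes had 2 past each side of 20 tested, with H1F0 at 1.07, HIST2H2BE at 1.01 and HIST1H4C at -1.04.

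Some lists held no listed gene, beside 4.77% of all genes tested, and a short list can hold none at that share. None of 20 aminoacyl-tRNA synthetases, 77 respiratory chain subunits, 40 proteasome subunits, 44 lysosome and autophagy genes, 21 glycolysis genes, 19 fatty acid oxidation genes, 19 hypoxia genes or 12 TGF-beta genes was past 1 in either direction. Over all genes tested 3961 of 8553 had a difference above 0. Proteasome subunits had a median difference of -0.29 with 5 of 40 above 0, and the synthetases one of -0.28. The median was -0.34 for fatty acid oxidation genes, -0.33 for TGF-beta genes and 0.17 for hypoxia genes. On the integrated stress response list, 25 of 32 genes rose with each compound, the median difference was -0.01, and SLC7A11 was the only one past 1. Cytosolic ribosomal proteins had 72 of 84 above 0 and a median of 0.13, with 1 past -1. Singles were found on further lists, with EDEM1 (-1.19) of 33 endoplasmic reticulum genes, EBNA1BP2 (-1.27) of 52 ribosome biogenesis genes, MFN1 (-1.04) of 26 mitochondrial import genes, PARP9 (-1.02) of 19 interferon genes, MAPT (1.09) of 14 tubulin genes and BIK (1.40) of 14 BCL2 family genes. Mitochondrial ribosomal proteins had MRPS6 (-1.35) and MRPL1 (-1.08) of 76. In all, 99 of the 408 genes were on at least 1 of the 43 lists and 309 on none.

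Genes with a positive difference had shorter spans, which is a description without a test. With small RNA genes left out, the median gene span was 16.3 kb for 127 genes with a positive difference, 28.8 kb for 265 with a negative one and 29.4 kb for 8522 genes tested. Spans over 100 kb made up 5.51%, 18.9% and 16.0%. The longest transcript had a median of 5 exons on the positive side, 8 on the negative side and 8 over all, and 27.6%, 27.8% and 17.3% had 3 exons or fewer.

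Genes close to the threshold show how the choice at 1 fell. Just inside on the positive side were KLF16, BCL9L and TRIM59, at 1.0 to 1.01, and just outside HERPUD1, GPSM1 and CCSAP, at 1.0 after rounding. Just inside on the negative side were C7orf49, LRCH3 and PUS7L, and just outside NQO2, PBDC1 and SLC35F6, all at -1.0 after rounding.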

How the data were processed

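RNA-seq values of 4 libraries, 1 per group, were used. The authors deposited RPKM (SR2211 experiment) and FPKM (XY011 experiment, 2 decimals), with Entrez identifiers, by which both were joined (15713 shared genes). BWA, Bowtie, Cufflinks, Cuffdiff and the builds GRCh37 and hg19 are named per the submitters' processing notes. Tool, version and annotation behind each table were not given in the sources used here. Nor is the use of strand, so reads of antisense pairs cannot be separated. The stand-ins for no reads were 0.01 and 0.001.

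Differences were computed with a pseudocount of 1, which understates changes of low genes, a floor of 5 and a size rule of 1, with no test (Python 3.11.15, numpy 2.4.6, pandas 2.3.3), and the script was tested on simulated data. Named genes were the 15 largest differences per direction and up to 4 past 1 in each of 43 lists. Further list members, genes moving in opposite directions and genes near the threshold were named after their values were seen. The members and lists were chosen with earlier results of these data known. Some genes are not reported here. Alternatives covered the pseudocount, floor, scaling, vehicle, response strength and stand-ins.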

Additional observations from a re-analysis of the deposited data

Results flagged for a closer look

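SNORA64 was singled out because both compounds moved it past 1 in opposite directions, and this difference was not tested. SR2211 took it from 5.46 to 1.83 RPKM, a log2 change of -1.19, and XY011 from 4.54 to 15.8 FPKM, a log2 change of 1.6, which makes a difference of 2.79. It is a small nucleolar RNA gene inside a host gene, and its values are uncertain in poly(A)-selected libraries. The SR2211 pair held an estimated 6 reads of it in vehicle and 2 with SR2211, so that change rests on few reads.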

How the results depend on the processing

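No paired analysis was possible because each group had 1 library and the labels give no replicate numbers, and for the same reason no library could be left out in turn. Against 136 positive and 272 negative differences, a pseudocount of 5 gave 65 and 70, a floor of 1 gave 237 and 529, and 1 mean vehicle for both experiments gave 259 and 563. Of the 408 genes, 133 stayed past 1 in the same direction with a pseudocount of 5 and 236 with 1 mean vehicle. The 1 mean vehicle cancels, so that alternative is the XY011 library in FPKM against the SR2211 library in RPKM and uses no vehicle. A floor of 10 gave 94 and 161, and a floor of 5 in all 4 libraries 94 and 128. The other alternatives stayed within 1.5 times of both counts, including the one without small RNA genes, which was chosen after seeing the data. With 1 mean vehicle, signs were reversed for 26 of the 408 genes, including CLDN3 (-1.81), GDF15 (-0.23), FKBP5 (0.16) and CCNG2 (-0.03), and for the median of the cytokine list (-0.23). For the genes that the naming rule chose, 888 values under the alternatives kept their direction and side of 1. A further 90 kept the direction alone and 2 were reversed. Alternatives that only changed which genes were tested left each value as it was, so their part of the 888 was fixed in advance. The 90 comprised 32 with a pseudocount of 5, 25 with the slope, 23 with 1 mean vehicle, 7 with quantile scaling and 3 with centring. Both reversals came with 1 mean vehicle. Past 1 under all 7 alternatives that change values were 74 genes, 35 positive and 39 negative, among them HMOX1, GCLM, SCD, KIF20A, HJURP, KLK3, TMPRSS2, NR1D1, TPM4, STEAP2, EIF5 and HNRNPM. Of the 7, setting the stand-ins to 0 kept all 408 genes past 1 and removed none from this count. With the slope applied, fewer clock genes (3 of the 6) and more oxidative stress genes (6) were past 1 and -1. Depth was estimated for the SR2211 pair alone, and cutting by size leaves the error of each difference unknown.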

Other observations

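Enzalutamide (ENZ) was used at 20 µM for 48 h in a separate pair of libraries of the same line. Of the genes above, without small RNA genes, 126 with a positive difference were listed there by symbol, with a median ENZ change of -0.01, 5 that rose and 7 that fell. Of 251 with a negative difference, 2 rose and 27 fell, with a median of -0.16. Over all 8414 genes listed, 135 rose and 197 fell, and the median was -0.05. These values come from the 1 ENZ library and its vehicle.

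Other genes with large positive differences act in growth control or development. CCNG2, an unconventional cyclin, rose from 15.8 to 36.3 RPKM with SR2211 and from 4.28 to 35.5 FPKM with XY011 (difference 1.64), with treated libraries -0.03 apart, so that the sign turns with 1 mean vehicle for both experiments. CDKN1B, which encodes the cyclin-dependent kinase inhibitor p27, stood at 39.1 and 63.1 RPKM and at 25.7 and 102 FPKM (1.27). ZBTB16, a zinc finger repressor, fell from 12.3 to 3.24 RPKM with SR2211 and stood at 8.49 and 8.33 FPKM in the XY011 pair (1.62). These 3 were chosen after their values were seen.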
